A study of Mus musculus with 7 samples.

Results

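The genes described here are 56 genes that carry a cell through mitosis, from the spindle checkpoint and the kinetochore to the last cut between the daughter cells. They were chosen by name, as the genes of the count files whose symbol in the GENCODE M21 mouse annotation is on a list of these functions, and all 56 were found among the 46603 genes counted. The samples were 3 pieces of a KO tumor and 4 pieces of a KO+NM1 tumor, profiled by RNA-seq. The KO line was made from mouse embryonic fibroblasts (MEFs) by deleting nuclear myosin 1 (NM1), a nuclear isoform of the Myo1c gene, with CRISPR/Cas9. KO+NM1 cells are the same deletion cells carrying a lentiviral NM1 with HA and V5 tags, selected with neomycin and tested as single clones, so that both groups share the deletion. The cells were injected into female Balb/c nude mice, which largely lack T cells, 16 weeks old and 5 per group. By the labels the injection was under the skin of the flank and the mice were followed for up to 30 days, while the study's text names both the flank and the mammary pad as the site and gives a slightly shorter time. By the sample descriptions a tumor of each kind was cut into 4 pieces and each piece homogenized alone, although the methods write of tumors. The replicates are therefore tumor pieces, and each SD, standard error and p-value given here measures the spread between pieces, not between mice. Read counts per gene do not separate the mouse tumor cells from the mouse host cells, and in a bulk sample fewer cells of a type and less RNA per cell cannot be told apart.

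Levels are CPM, read counts scaled to a library size that TMM adjusts, a normalization that assumes most genes do not change. Between 24088309 and 28326568 reads were counted per piece, and a count of 0 allows up to 0.0991 to 0.148 CPM, for counting error only. KO+NM1 piece 01 stood apart from the other pieces of its tumor. Across genes, which are not independent, the correlation of its log2 CPM with theirs was 0.855 to 0.861, where theirs with each other was 0.977 to 0.986. Myo1c, which holds the targeted isoform, was at 289 to 313 CPM in the KO pieces and 382 to 438 CPM in the KO+NM1 pieces, and gene counts cannot show the isoform itself.

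A dividing cell condenses its chromosomes with condensin and topoisomerase II, builds kinetochores on its centromeres and attaches them to the spindle. Kinetochores without microtubules keep the cell from anaphase through the spindle checkpoint, and once it is satisfied Cdc20 turns on the anaphase-promoting complex, separase opens the cohesin rings and the central spindle directs the cleavage furrow. Most of these genes are transcribed late in the cell cycle, through promoter elements called CHR and CCAAT, which the MuvB complex with B-Myb or FoxM1 and the factor NF-Y bind.

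The promoters of 5 of these genes are printed because they show both kinds of element before the start of the gene, in bases that no annotated exon covers. Capitals mark a CHR (TTTGAA or TTCGAA) or a CCAAT on either strand, and each run ends at the base before the RefSeq start. They come from RefSeq on GRCm38.p6, Top2a at chr11:99024190-99024429 on the minus strand, Mki67 at chr7:135716380-135716579 on the minus strand, Bub1b at chr2:118598011-118598210 on the plus strand, Ckap2 at chr8:22185820-22185939 on the minus strand and Ect2 at chr3:27153879-27154008 on the minus strand, and read 5′ to 3′ along the gene.
Top2a: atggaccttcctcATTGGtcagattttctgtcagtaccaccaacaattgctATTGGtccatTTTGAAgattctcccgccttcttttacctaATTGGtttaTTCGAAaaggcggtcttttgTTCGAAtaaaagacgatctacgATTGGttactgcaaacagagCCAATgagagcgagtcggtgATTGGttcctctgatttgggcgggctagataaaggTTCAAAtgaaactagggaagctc
Mki67: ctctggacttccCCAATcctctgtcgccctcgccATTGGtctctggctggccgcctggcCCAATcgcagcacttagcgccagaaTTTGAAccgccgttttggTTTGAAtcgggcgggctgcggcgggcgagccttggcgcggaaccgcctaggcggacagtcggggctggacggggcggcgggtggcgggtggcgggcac
Bub1b: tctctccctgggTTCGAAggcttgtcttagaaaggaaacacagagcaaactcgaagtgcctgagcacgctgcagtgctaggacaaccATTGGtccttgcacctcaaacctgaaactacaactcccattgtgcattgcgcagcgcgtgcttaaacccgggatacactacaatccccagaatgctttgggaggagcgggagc
Ckap2: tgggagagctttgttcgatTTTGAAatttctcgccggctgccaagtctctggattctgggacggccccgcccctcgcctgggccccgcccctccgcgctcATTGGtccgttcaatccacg
Ect2: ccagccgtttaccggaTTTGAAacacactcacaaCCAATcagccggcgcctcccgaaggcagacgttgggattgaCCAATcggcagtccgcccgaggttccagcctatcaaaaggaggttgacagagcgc
The Top2a promoter holds 4 CHR and 6 CCAAT matches, the most of the 5 printed, and the Mki67 promoter holds 2 CHR matches at positions -116 and -98.

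RefSeq windows of 300 bases, 250 before and 50 after the start, were found for 46 of the 56 genes, in 52 windows. No window was given for Pbk, Aurkb, Tpx2, Spc24, Foxm1, Pimreg, Zwilch, Smc4, Bora and Incenp. A CHR was present in 33 of the 52 windows, 63.5%, and in 19.2% of all 32851 mouse windows of the same length. CCAAT was present in 76.9% of the mitotic windows and 37.4% of all windows. Both stood together in 59.6% of the mitotic windows and in 7.52% of all. An E2F site, searched as TTTCCCGC, TTTGGCGC or TTTCGCGC, was found in 3 windows, those of Cenpm, Ncapd2 and Ncapg, which is 5.77% against 1.84% of all. Matches of different motifs overlapped 2 times in the mitotic windows. Of the 42 CHR matches 29, or 69.0%, began within 50 bases of the start on either side, where 25.2% of the CHR matches of all windows did. The windows of Bub3, Ect2 and Prc1 overlap another window of the same gene, so that some matches were counted more than once. As genomic sites there were 38, of which 27, or 71.1%, lay that close to a start of their gene. The windows of all genes were not reduced in this way. In the 250 bases before the start alone, 34.6% of the mitotic windows and 17.1% of all windows held a CHR. Neither CHR nor CCAAT was found in 10 genes, Birc5, Cit, Mad2l1, Melk, Mybl2, Ncaph, Nuf2, Nusap1, Plk4 and Pttg1. The first transcribed bases of 45 of the 52 windows were found in a GENCODE transcript of the gene. Those of Aurka, Cenpn, Mad2l1, Mybl2, Plk4, Smc2 and a window of Sgo2a were not. Whether these windows cover the start in use is not known. Aurka, Cenpn and Smc2 are among the genes with a CHR, and Mad2l1, Mybl2 and Plk4 among those with neither element. These shares are descriptions of letters, with no test and no statement on binding.

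**Figure D1:**
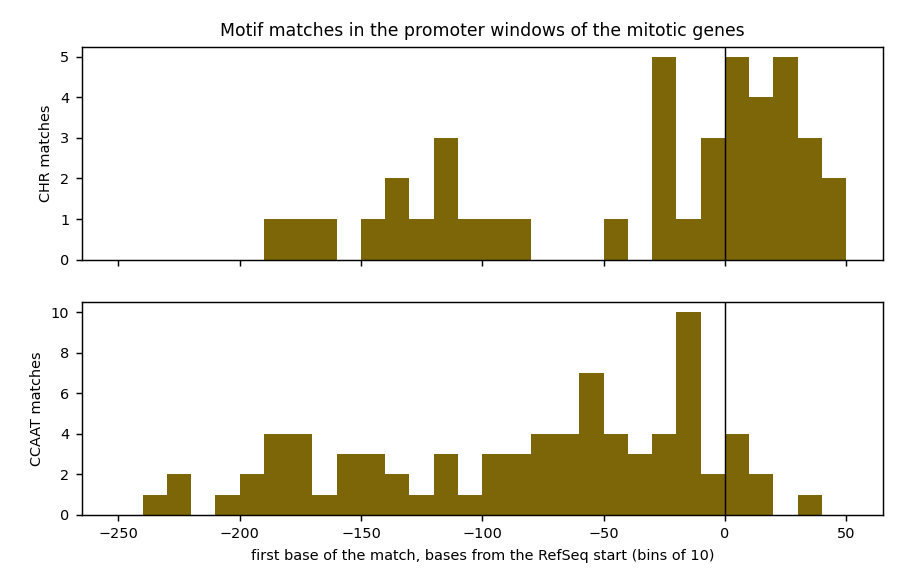
Number of CHR (top) and CCAAT (bottom) matches in the 52 RefSeq promoter windows of the mitotic genes, in bins of 10 bases, by distance in bases from the RefSeq start (vertical line). CHR matches gather at the start, with 29 of 42 beginning within 50 bases of it, and CCAAT matches lie mostly before it. A site in overlapping windows of Bub3, Ect2 or Prc1 is counted in each.

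All 56 mitotic genes were higher in the KO tumor, most of them by more than an order of magnitude. In edgeR's quasi-likelihood test over 16887 genes, 55 of the 56 were higher in the KO tumor by at least 2-fold and an adjusted p under 0.05, where 17.1% of all genes tested were. Lower at the same thresholds were 0 of the 56, against 20.3% of all genes, and no member had a log2 fold change below 0. By the adjusted p alone all 56 were higher, against 25.7% of all genes. In all 56 every KO piece was above every KO+NM1 piece, which held for 30.5% of all genes. The median log2 fold change, KO minus KO+NM1 throughout, was 4.98 for these genes and 0.00 for all genes tested. It was at least 4 in 45 genes and at least 5 in 28, and 53 of the 56 were among the 1000 largest rises. A log2 fold change under 3 was found in 3 genes, Bub3, Bora and Smc4. Since the genes belong to one process and were listed with earlier results of these data known, their number is not a count of independent observations.

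Summed over the 56 genes, the level was 7040, 5710 and 5810 CPM in KO pieces 01 to 03 and 597, 226, 223 and 263 CPM in KO+NM1 pieces 01 to 04. KO piece 01 was the highest of its group and KO+NM1 piece 01 the highest of the other, and the lowest KO piece was 9.56 times the highest KO+NM1 piece. The KO pieces were much more alike than the KO+NM1 pieces. The coefficient of variation of a member had a median of 9.64% over the KO pieces, 70.9% over the KO+NM1 pieces and 28.6% over KO+NM1 pieces 02 to 04. In 54 of the 56 genes the highest KO+NM1 piece was piece 01, with a median of 3.04 times the mean of the other 3. Without piece 01, 55 genes were again higher at both thresholds and the median log2 fold change was 5.56.

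**Figure D2:**
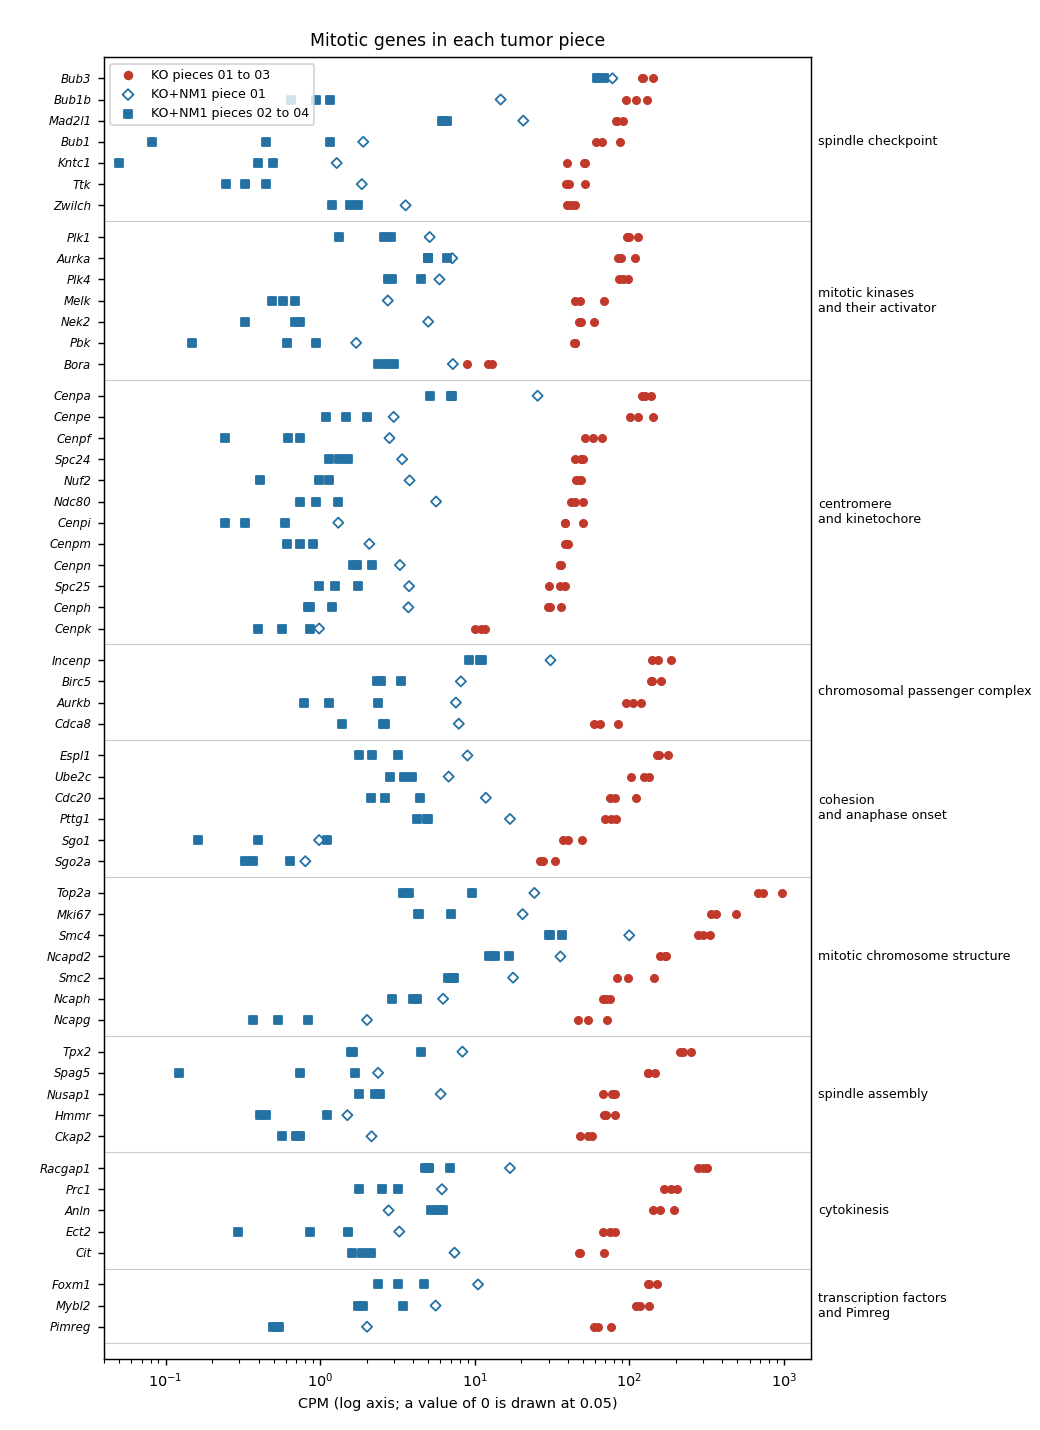
CPM of each of the 56 mitotic genes on a log axis, ordered by role, with a point for each of the 3 KO pieces (red circles), KO+NM1 piece 01 (open diamonds) and KO+NM1 pieces 02 to 04 (blue squares). In all 56 genes the red points lie to the right of the blue ones, with the narrowest gaps in Bub3 and Bora, and piece 01 is the rightmost KO+NM1 piece in 54.

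Markers of other cell types also differed between the tumors, in both directions. All 11 skeletal muscle markers tested, of 12, were higher in the KO tumor, with summed levels of 2540 to 20500 CPM against 53.5 to 194 CPM. All 10 white adipocyte markers were lower, at 118 to 310 CPM against 4770 to 35000 CPM, as were 6 of 8 brown adipocyte markers, at 10.8 to 40.1 CPM against 437 to 3770 CPM. The 10 endothelial markers were lower too, at 242 to 275 CPM against 1260 to 1920 CPM, while 8 of 10 macrophage markers were higher and Cd14 was lower, at 3760 to 4290 CPM against 735 to 2590 CPM. Of 10 keratinocyte and mammary epithelial markers 8 were tested and 3 were lower, with sums of 31.5 to 1140 CPM and 334 to 1660 CPM. Wap was nearly absent from both tumors, at 0 in every KO piece and at most 2 counts in a KO+NM1 piece, and was not tested. Fibroblast and mesenchymal markers, which do not tell injected cells from host cells, were present in both tumors. They summed to 11500 to 18300 CPM and 5040 to 18600 CPM, with 1 of 12 higher and 4 lower. Beside these marker counts, 17.1% of all genes tested were higher and 20.3% lower at the same thresholds. The share of counts on mitochondrially encoded genes also separated the tumors, at 1.81% to 2.14% in the KO pieces and 5.11% to 18.5% in the KO+NM1 pieces. The part of these differences in the result for the mitotic genes was not tested.

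Within the KO+NM1 tumor, piece 01 was higher in lymphocyte markers and lower in those of several other cell types. The 10 B and plasma cell markers summed to 8900 CPM in piece 01, to 210 to 273 CPM in pieces 02 to 04 and to 99.5 to 189 CPM in the KO pieces, and 1 of them, Ighm, was lower in the KO tumor. The 10 T and NK cell markers summed to 289 CPM in piece 01, to 5.63 to 8.96 CPM in pieces 02 to 04 and to 195 to 234 CPM in the KO pieces, with Trac the 1 that was higher. Macrophage markers summed to 2590 CPM in piece 01 and 735 to 1030 CPM in pieces 02 to 04. Most of that gap was Lyz2, at 1900 CPM in piece 01 and 196 to 272 CPM in pieces 02 to 04. Adgre1, Mrc1 and Cd14 were lowest in piece 01, while Csf1r, Cd68, Fcgr1, C1qa, C1qb and C1qc were highest there. The median log2 of CPM plus 0.5 over the macrophage list was 6.19 in piece 01 and 6.13 to 6.56 in pieces 02 to 04. Piece 01 was the lowest of its tumor in white adipocyte markers, at 4770 CPM against 24800 to 35000 CPM, and in fibroblast markers, at 5040 CPM against 12100 to 18600 CPM. It was also the lowest in epithelial markers, at 334 CPM against 1060 to 1660 CPM, in brown adipocyte markers, at 437 CPM against 584 to 3770 CPM, and in endothelial markers, at 1260 CPM against 1540 to 1920 CPM. Its mitochondrial share of 5.11% was below the 7.77% to 18.5% of the other 3. The part of these differences in the mitotic level of piece 01 was not tested.

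**Figure D3:**
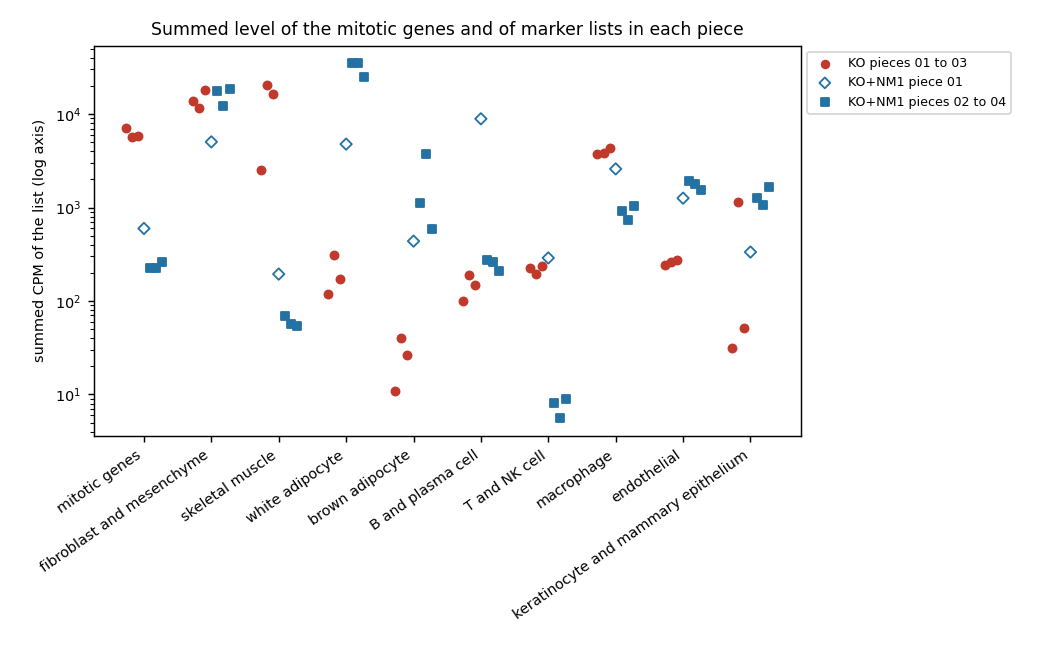
Summed CPM, on a log axis, of the 56 mitotic genes and of 9 marker lists in each piece, with KO pieces as red circles, KO+NM1 piece 01 as open diamonds and KO+NM1 pieces 02 to 04 as blue squares. The mitotic genes lie at 5710 to 7040 CPM in the KO pieces and at 223 to 597 CPM in the KO+NM1 pieces, and piece 01 has 8900 CPM of B and plasma cell markers.

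The spindle checkpoint genes, whose products sense unattached kinetochores, had a median log2 fold change of 4.67, and 6 of 7 rose at least 2-fold. Bub3, which brings Bub1 and BubR1 to the kinetochore, was the exception. It was at 143, 121 and 123 CPM in the KO pieces and 77.7, 68.9, 61.9 and 62.3 CPM in the KO+NM1 pieces. The groups did not overlap, but the log2 fold change was 0.93 (SE 0.14, adjusted p = 0.00185), the smallest of the 56 and under the 2-fold threshold, which it passed (1.10) when library size alone was used. Bub3 was also the most abundant member per length in the KO+NM1 tumor, at 9.66 CPM per kb of exon, and the stretch that its overlapping promoter windows share held a CHR and a pair of CCAAT matches.

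Kntc1, the rod subunit of the complex that brings dynein to the kinetochore, changed most in this group. It was at 51.7, 39.5 and 50.9 CPM in the KO pieces and 1.28, 0, 0.395 and 0.493 CPM in the KO+NM1 pieces. Piece 02 had no counts, and the log2 fold change was 6.42 (SE 0.85, adjusted p = 0.00195). Bub1, the kinase that marks the centromere for shugoshin, followed with 6.30 (SE 0.73), then Ttk, the Mps1 kinase that starts the checkpoint signal, with 5.90 (SE 0.67). Zwilch, a partner of Kntc1, had 4.37 (SE 0.37).

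Bub1b, which encodes BubR1 of the mitotic checkpoint complex, showed the widest gap between KO+NM1 piece 01 and the rest. It was at 130, 110 and 94.6 CPM in the KO pieces and at 14.7, 0.651, 0.939 and 1.15 CPM in the KO+NM1 pieces, so that piece 01 was 16.1 times the mean of pieces 02 to 04. The groups did not overlap, and the log2 fold change was 4.67 with the largest standard error of the 56 (SE 1.07, adjusted p = 0.0145). Mad2l1, which encodes the checkpoint protein Mad2, had a like pattern, with 20.6 CPM in piece 01 and 6.18 to 6.66 CPM in the other 3, and a log2 fold change of 3.10 (SE 0.46).

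Among the mitotic kinases and their activator, all 7 rose, with a median of 4.92. Plk1, the polo kinase needed from mitotic entry to cytokinesis, had the highest level per length of the group in the KO tumor, at 46.9 CPM per kb of exon, but lay below Aurka in the KO+NM1 tumor, at 1.36 against 2.34 CPM per kb. Plk1 was at 113, 96.2 and 100 CPM in the KO pieces and 5.11, 2.89, 1.33 and 2.59 CPM in the KO+NM1 pieces, without overlap and with a log2 fold change of 5.11 (SE 0.39, adjusted p = 0.000384). Pbk, a mitotic kinase also called TOPK, changed most. Its levels of 44.3, 43.8 and 44.8 CPM in the KO pieces were nearly equal, against 1.71, 0.610, 0.148 and 0.946 CPM (log2 fold change 5.67, SE 0.60, adjusted p = 0.000951).

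Aurka, the Aurora kinase of the spindle poles, was the steadiest of the kinases in the KO+NM1 tumor. It was at 109, 87.7 and 84.1 CPM in the KO pieces and 7.15, 5.00, 6.57 and 4.97 CPM in the KO+NM1 pieces, which gave a log2 fold change of 3.98 (SE 0.19) with the smallest adjusted p of the 56, 0.000187. Its activator Bora, which lets Aurora A switch on Plk1, changed least in the group. Bora was at 12.9, 12.2 and 8.88 CPM in the KO pieces and 7.22, 2.36, 2.72 and 3.00 CPM in the KO+NM1 pieces. The lowest KO piece lay just above KO+NM1 piece 01, and the log2 fold change was 1.56 (SE 0.44, adjusted p = 0.022). The call of Bora was lost on leaving out any piece other than KO+NM1 piece 01, with an adjusted p of 0.0519 to 0.0887, and stretches of its transcript resemble other genes, with 24.8% of its length at 90.7% identity in a pseudogene.

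Plk4, which starts centriole duplication, had a log2 fold change of 4.51 (SE 0.28), Nek2, which splits the centrosomes, 4.92 (SE 0.85) and the kinase Melk 5.56 (SE 0.61). Plk1 shares 82.4% of its transcript at 93.5% identity with the pseudogene Plk-ps1, to which 23 to 48 counts per KO piece and 2 to 8 per KO+NM1 piece were given. Cdc20 and its pseudogene Gm7856 are alike over 84.3% of the transcript, and at most 2 counts per piece were given to the copy. How the counting divided reads between such copies is not known, so the levels of Plk1 and Cdc20 are uncertain to that extent. The same holds for Pbk, alike to the pseudogene Gm12387 over 55.5% of its transcript at 95.4% identity, and for Sgo1, alike to Gm6982 over 43.2% at 92.9% identity, with at most 1 and 2 counts per piece given to these copies.

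All 12 centromere and kinetochore genes rose, with a median log2 fold change of 4.54 and a range of 3.51 to 6.07. Cenpa, the histone H3 variant that marks the centromere, had the smallest change. It was at 137, 121 and 127 CPM in the KO pieces and 25.5, 5.17, 7.11 and 7.07 CPM in the KO+NM1 pieces, without overlap (3.51, SE 0.55, adjusted p = 0.00275). Cenpi, a subunit of the constitutive centromere network, changed most. It was at 49.9, 38.1 and 38.6 CPM in the KO pieces and 1.31, 0.244, 0.593 and 0.329 CPM in the KO+NM1 pieces (6.07, SE 0.53, adjusted p = 0.000561). Cenpe, a kinesin that carries chromosomes to the metaphase plate, had 5.96 (SE 0.33) and Cenpf, a large protein of the outer kinetochore, 5.71 (SE 0.69).

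The 4 genes of the Ndc80 complex, which grips the microtubule, all rose. Ndc80 was at 50.4, 44.8 and 41.8 CPM in the KO pieces, Nuf2 at 48.7, 47.5 and 44.9 CPM, Spc24 at 49.0, 49.9 and 44.2 CPM and Spc25 at 38.2, 35.7 and 30.2 CPM. In the KO+NM1 pieces the 4 genes ranged from 0.411 to 5.62 CPM, each highest in piece 01, and their log2 fold changes were 4.40 (SE 0.69), 4.88 (SE 0.65), 4.69 (SE 0.39) and 4.16 (SE 0.46). The remaining inner kinetochore genes Cenph, Cenpk, Cenpm and Cenpn had 3.95 to 5.16. Cenpk was the least abundant per length of the 56 in the KO tumor, at 2.09 CPM per kb, and shares 4.45% of its exon bases with Ppwd1 on the opposite strand.

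The chromosomal passenger complex, in which Aurora B corrects wrong attachments, rose in all 4 of its genes. Incenp, its scaffold, had the smallest change. It was at 186, 141 and 154 CPM in the KO pieces and 30.9, 10.8, 9.19 and 11.2 CPM in the KO+NM1 pieces, without overlap (3.37, SE 0.44, adjusted p = 0.00143). Birc5, which encodes survivin, changed most, with 161, 137 and 141 CPM against 8.13, 2.32, 2.47 and 3.33 CPM (5.16, SE 0.45, adjusted p = 0.000529). Aurkb, the kinase itself, was close to it with 5.15 (SE 0.71), and Cdca8, which encodes borealin, had 4.25 (SE 0.55).

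All 6 genes of sister cohesion and anaphase onset rose, with a median of 5.06. Espl1 encodes separase, the protease that cuts cohesin. It was at 178, 150 and 155 CPM in the KO pieces and 8.97, 2.16, 1.78 and 3.21 CPM in the KO+NM1 pieces (5.31, SE 0.55, adjusted p = 0.000882). Pttg1, which encodes securin, the inhibitor of separase, changed least. It was at 81.7, 69.8 and 76.6 CPM in the KO pieces and 16.9, 4.23, 4.99 and 4.89 CPM in the KO+NM1 pieces (3.29, SE 0.51, adjusted p = 0.00253), so that piece 01 lay 3.60 times above the mean of the other KO+NM1 pieces.

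Sgo1, a shugoshin that protects cohesin at the centromere, changed most in this group. It was at 49.3, 40.2 and 37.0 CPM in the KO pieces and 0.985, 0.163, 0.395 and 1.11 CPM in the KO+NM1 pieces (5.97, SE 0.55, adjusted p = 0.000652), and piece 04 rather than piece 01 was the highest of its tumor. Sgo2a, the other shugoshin, had 5.75 (SE 0.34), but 35.04% of its exon bases are shared with Kctd18 on the opposite strand. Cdc20, the activator of the anaphase-promoting complex, had 4.08 (SE 0.58) and Ube2c, the ubiquitin-conjugating enzyme of that complex, 4.82 (SE 0.30).

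Ube2c shares 592 exon bases, 22.77% of its exon length, with the muscle gene Tnnc2 on the opposite strand, and the strand setting of the counting was not given in the sources used here. Ube2c was at 134, 125 and 103 CPM in the KO pieces and 6.78, 2.85, 3.51 and 3.91 CPM in the KO+NM1 pieces. The muscle markers summed to 2540, 20500 and 16400 CPM in the same KO pieces. The part of reads from Tnnc2 in the level of Ube2c was not tested. Tnnc2 itself was given 9, 47 and 36 counts in the KO pieces and at most 1 in a KO+NM1 piece, and was too low to be tested.

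All 7 genes of mitotic chromosome structure rose, with a median of 4.02. Top2a, topoisomerase II alpha, which untangles sister DNA, was at 970, 679 and 730 CPM in the KO pieces and 24.3, 3.46, 3.76 and 9.54 CPM in the KO+NM1 pieces. The means were 793 ± 156 CPM (SD, n = 3) and 10.3 ± 9.75 CPM (SD, n = 4), and the log2 fold change of 6.27 (SE 0.68, adjusted p = 0.00118) was the largest of the group. Per length Top2a was the highest of the 56 in the KO tumor, at 88.0 CPM per kb, and at 1.14 CPM per kb in the KO+NM1 tumor. Mki67, which encodes the Ki-67 protein that coats mitotic chromosomes and is read as a mark of cycling cells, was at 488, 336 and 361 CPM in the KO pieces and 20.4, 4.31, 4.35 and 7.03 CPM in the KO+NM1 pieces (5.45, SE 0.57, adjusted p = 0.000968). In both genes the piece numbered 01 was the highest of its tumor, and the groups lay far apart.

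The 5 condensin genes had log2 fold changes of 2.62 to 5.92. Smc4, a core ATPase of both condensins, changed least, at 334, 279 and 299 CPM in the KO pieces and 99.8, 30.8, 30.3 and 36.6 CPM in the KO+NM1 pieces (2.62, SE 0.45, adjusted p = 0.00351). Its KO+NM1 piece 01 lay between the KO pieces and the rest of its own tumor, as in 54 of the 56 genes. Its partner Smc2 had 3.48 (SE 0.40), and the condensin I subunits Ncapd2, Ncaph and Ncapg had 3.10 (SE 0.38), 4.02 (SE 0.25) and 5.92 (SE 0.54). Ncapg shares 13.36% of its exon bases with Lcorl on the opposite strand.

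The 5 spindle assembly genes had the largest median log2 fold change of the 9 roles, 5.82, which was not tested against the other roles. Their summed level was 616, 554 and 532 CPM in the KO pieces and 20.4, 4.96, 5.34 and 10.4 CPM in the KO+NM1 pieces. They made up 8.74% to 9.71% of the summed CPM of the 56 genes in the KO pieces and 2.20% to 3.97% in the KO+NM1 pieces, without overlap. The shares of the kinase, kinetochore, cohesion, cytokinesis and transcription factor roles were also lower in the KO+NM1 pieces without overlap. That of the spindle checkpoint was higher there, at 20.4% to 34.5% against 8.45% to 8.78%. Most of the checkpoint sum in the KO+NM1 pieces was Bub3, at 77.7, 68.9, 61.9 and 62.3 CPM of 122, 77.9, 71.6 and 73.5 CPM. In the KO pieces Bub3 was at 143, 121 and 123 CPM of 599, 501 and 491 CPM. The shares depend on each other, since they are parts of the same sum. That sum was 597, 226, 223 and 263 CPM in the KO+NM1 pieces, and Bub3 as a large part of it lowers the share of every other role. Shares without Bub3 were not computed, so the differences in share are not read as traits of the roles. Spag5, which encodes astrin, a protein of spindle and kinetochore, changed most of the 56. It was at 147, 132 and 132 CPM in the KO pieces and 2.37, 0.122, 0.741 and 1.69 CPM in the KO+NM1 pieces (6.78, SE 0.69, adjusted p = 0.000968), where piece 02 stood at the limit that a count of 0 allows.

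Tpx2, which activates Aurora A and nucleates microtubules at chromosomes, had the highest level per length of the spindle genes in both tumors, at 48.9 and 0.858 CPM per kb of exon. It was at 249, 222 and 214 CPM in the KO pieces and 8.32, 1.59, 1.63 and 4.52 CPM in the KO+NM1 pieces (5.82, SE 0.57, adjusted p = 0.000831). Nusap1, a microtubule bundler, changed least, with 80.6, 77.6 and 67.7 CPM against 6.02, 2.28, 1.78 and 2.43 CPM (4.58, SE 0.41, adjusted p = 0.000563). The groups stayed far apart in each of these genes, and Hmmr, a spindle protein that also binds hyaluronan, and Ckap2, a microtubule-associated protein, had 6.39 (SE 0.44) and 5.65 (SE 0.46).

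All 5 cytokinesis genes rose, with a median of 5.15. Racgap1, a subunit of centralspindlin, had the highest level per length in both tumors, at 42.1 and 1.18 CPM per kb of exon. It was at 319, 276 and 300 CPM in the KO pieces and 16.9, 4.76, 5.04 and 6.87 CPM in the KO+NM1 pieces (5.15, SE 0.45, adjusted p = 0.000567). Prc1, which bundles the antiparallel microtubules of the midzone, changed most. It was at 203, 185 and 167 CPM in the KO pieces and 6.13, 1.79, 2.52 and 3.17 CPM in the KO+NM1 pieces (5.76, SE 0.39, adjusted p = 0.000316), and 11.08% of its exon bases are shared with Rccd1 on the opposite strand. Ect2, the exchange factor that turns on RhoA at the cell equator, had 5.63 (SE 0.63). Cit, which encodes citron kinase of the midbody, changed least, with 68.6, 47.7 and 47.3 CPM against 7.40, 1.87, 2.12 and 1.60 CPM (4.06, SE 0.56, adjusted p = 0.00187).

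Anln departed from the rest of the 56 within the KO+NM1 tumor. It encodes anillin, which ties the contractile ring to the membrane, and was at 193, 158 and 143 CPM in the KO pieces and 2.77, 5.90, 5.19 and 6.21 CPM in the KO+NM1 pieces. Piece 01 was the lowest of the 4, at 0.481 times the mean of the other 3, where the median of this ratio over the 56 genes was 3.04. The groups did not overlap, and the log2 fold change was 5.04 (SE 0.28, adjusted p = 0.000225).

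The transcription factors of late cell cycle genes rose together with them. Foxm1, a forkhead factor, was at 152, 132 and 134 CPM in the KO pieces and 10.5, 3.21, 2.37 and 4.73 CPM in the KO+NM1 pieces (4.74, SE 0.48, adjusted p = 0.000786). Mybl2, which encodes B-Myb, was at 134, 118 and 111 CPM in the KO pieces and 5.58, 1.75, 1.88 and 3.45 CPM in the KO+NM1 pieces (5.25, SE 0.40, adjusted p = 0.0004). Both were highest in the pieces numbered 01, and the groups of neither overlapped. Pimreg, a mitotic regulator that binds the clathrin adaptor CALM, had the largest change of the 3, with 76.5, 62.5 and 58.9 CPM against 2.01, 0.529, 0.543 and 0.493 CPM (6.18, SE 0.52, adjusted p = 0.000517).

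**Figure D4:**
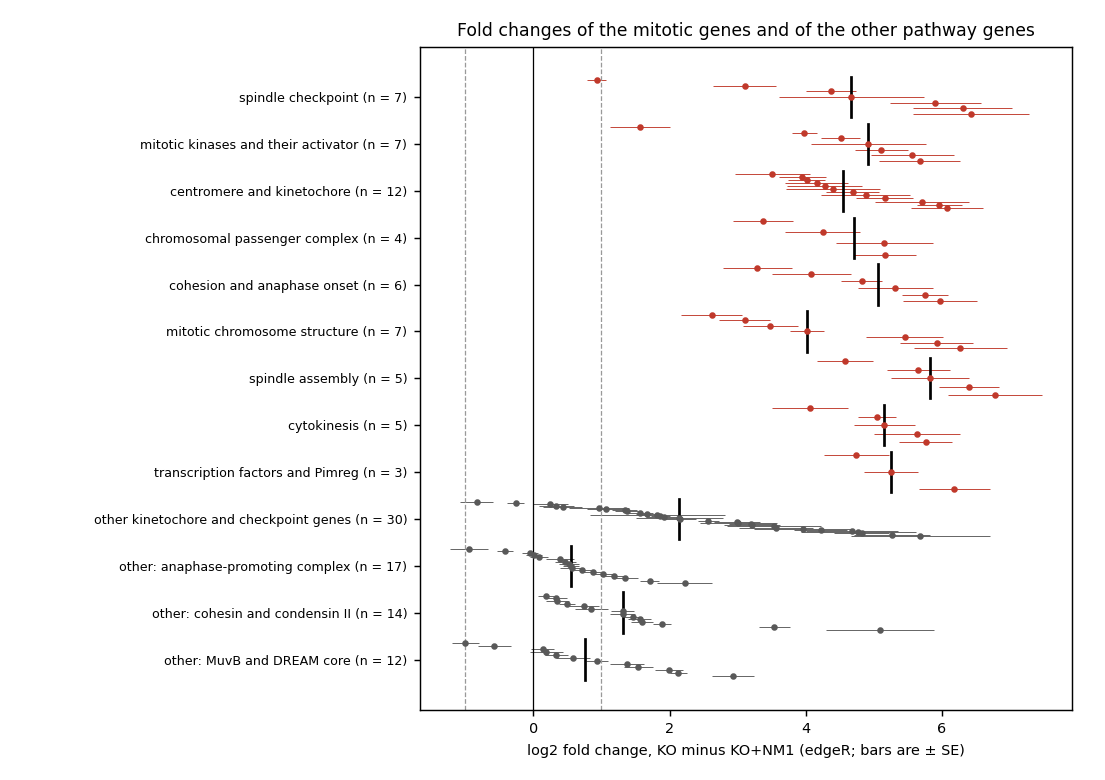
Log2 fold changes, KO minus KO+NM1, of the mitotic genes by role (red) and of 73 other genes of the same pathways by list (grey), each point a gene with its SE from edgeR, black bars the medians and dashed lines the 2-fold threshold. Medians by role lie between 4.02 and 5.82, and those of the other lists between 0.55 and 2.14.

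Other genes of the same machinery, from 4 lists of 73 genes in all, were read from the same fit. All 73 were tested, 41 were higher and 1 was lower at both thresholds, against 17.1% and 20.3% of all genes tested. By the adjusted p alone 51 were higher and 4 lower, against 25.7% and 24.5% of all genes. Their median log2 fold change was 1.34, against 4.98 for the 56 genes. The difference between these medians was not tested.

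Of 30 other kinetochore and checkpoint genes 23 were higher, against 17.1% of all genes tested, with a median log2 fold change of 2.14. Knl1, the kinetochore scaffold that binds Bub1 and Bub3, changed most. It was at 45.5, 32.4 and 33.0 CPM in the KO pieces and 2.37, 0.163, 0.198 and 0.0822 CPM in the KO+NM1 pieces (5.68, SE 1.02, adjusted p = 0.00577). Cenpb, which binds centromeric satellite DNA, stood at the other end. It was at 204, 221 and 210 CPM in the KO pieces and 238, 451, 437 and 373 CPM in the KO+NM1 pieces, lower by the adjusted p alone (-0.83, SE 0.24, adjusted p = 0.0252).

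The 17 genes of the anaphase-promoting complex and its regulators had a median log2 fold change of 0.55, with 5 higher and 0 lower at both thresholds, against 17.1% and 20.3% of all genes. By the adjusted p alone 11 were higher and 2 lower, against 25.7% and 24.5%. Fbxo5, which encodes the inhibitor Emi1, changed most. It was at 36.6, 35.5 and 34.5 CPM in the KO pieces and 14.4, 5.74, 4.40 and 5.92 CPM in the KO+NM1 pieces (2.22, SE 0.41, adjusted p = 0.0045). Anapc13, a small structural subunit, was lower by the adjusted p alone, with 34.5, 40.2 and 38.4 CPM against 41.0, 84.2, 96.5 and 68.8 CPM (-0.95, SE 0.28, adjusted p = 0.0292). Cdc26 was also lower by the adjusted p alone.

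Of the 14 cohesin and condensin II genes 8 were higher, against 17.1% of all genes tested, with a median of 1.31. Cdca5, which encodes sororin, the protein that locks cohesin on replicated DNA, changed most. It was at 57.7, 49.8 and 44.6 CPM in the KO pieces and 3.90, 0.203, 0.840 and 0.946 CPM in the KO+NM1 pieces (5.09, SE 0.79, adjusted p = 0.00314). Wapl, which releases cohesin, had the smallest value, 0.19 (SE 0.12, adjusted p = 0.205), at 82.4 to 89.1 CPM against 69.6 to 82.5 CPM.

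The 12 genes of MuvB and DREAM, the complexes that repress or activate these promoters by cell cycle phase, were mixed, with a median of 0.76. Of them 5 were higher and 1 lower, against 17.1% and 20.3% of all genes tested. Rbl1, which encodes the pocket protein p107, changed most, with 122, 106 and 106 CPM in the KO pieces and 24.4, 10.6, 11.8 and 11.7 CPM in the KO+NM1 pieces (2.93, SE 0.31, adjusted p = 0.000749). Lin52, the MuvB subunit through which the pocket proteins dock, was the 1 gene that fell. It was at 6.70, 8.65 and 8.85 CPM in the KO pieces and 13.1, 17.2, 17.0 and 17.2 CPM in the KO+NM1 pieces (-1.0, SE 0.20, adjusted p = 0.00662), without overlap and at the edge of the 2-fold threshold. The count of lower genes over the 4 lists was 0 without KO piece 01 or KO+NM1 piece 02, 03 or 04 and 3 without KO+NM1 piece 01.

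To compare each mitotic gene with a relative inside the same piece, 12 pairs were taken as the log2 ratio of CPM plus 0.5. The scaling of the library cancels in such a ratio only where both levels are well above 0.5 CPM. In 10 of the 12 pairs the ratio differed between the tumors in a two-sided exact permutation test (p = 0.0286, adjusted to 0.0343 over the 12 pairs), which is as low as 3 pieces against 4 can give. The ratio of Top2a to Top2b, the isoform that non-dividing cells also use, was 3.42, 2.79 and 2.98 in the KO pieces and -2.53, -4.45, -4.36 and -3.27 in the KO+NM1 pieces. The groups did not overlap, with 6.72 between the means. The ratio is not per length, so its sign does not order the isoforms. Top2b itself was at 93.2 ± 3.95 CPM (SD, n = 3) and 103 ± 26.9 CPM (SD, n = 4), with a log2 fold change of -0.14 (SE 0.20, adjusted p = 0.589).

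The stress-inducible Plk2 and Plk3, the kinase Nek7 and the apoptosis inhibitor Xiap likewise did not follow the genes they were paired with. The ratio of Plk1 to Plk2 was 1.33, 0.98 and 0.84 in the KO pieces and -2.69, -4.82, -5.52 and -5.06 in the KO+NM1 pieces, a difference of 5.57. That of Nek2 to Nek7 also differed by 5.57, that of Birc5 to Xiap by 4.96 and that of Plk4 to Plk3 by 4.41. The relatives on their own had log2 fold changes of -0.68 (SE 0.34, adjusted p = 0.146) for Plk2, 0.00 (SE 0.17, adjusted p = 0.992) for Plk3, -0.57 (SE 0.15, adjusted p = 0.0175) for Nek7 and 0.21 (SE 0.12, adjusted p = 0.17) for Xiap.

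Other relatives rose as well, so that their ratios differed less. The ratio of Cdc20 to Fzr1, the late mitotic and G1 activator of the anaphase-promoting complex, differed by 2.86, and that of Mybl2 to Mybl1 by 2.01. Condensin I over condensin II differed by 2.47 for Ncaph to Ncaph2 and 1.98 for Ncapg to Ncapg2, and Smc2 over the cohesin subunit Smc1a by 2.21. Ncapd2 to Ncapd3, with a difference of 1.34, and Smc4 to Smc3, with 1.25, missed the threshold (exact permutation test, p = 0.0571, adjusted p = 0.0571 for both). In both, KO+NM1 piece 01, at 1.29 and 0.43, lay just under the lowest KO piece, at 1.47 and 0.65, and above the other 3 KO+NM1 pieces.

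**Figure D5:**
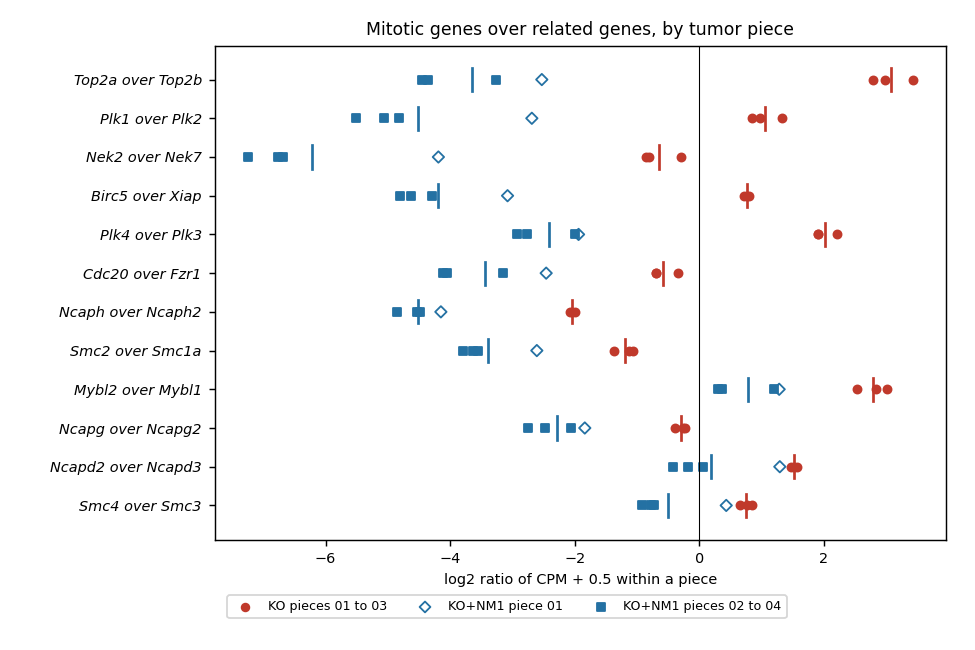
Log2 ratio of CPM plus 0.5 of a mitotic gene to a related gene within each piece, for 12 pairs ordered by the difference between the tumors, with KO pieces as red circles, KO+NM1 piece 01 as open diamonds, pieces 02 to 04 as blue squares and short bars at the group means. The ratio of Top2a to Top2b is above 0 in the 3 KO pieces and below 0 in the 4 KO+NM1 pieces, and in Ncapd2 and Smc4 piece 01 lies next to the KO pieces.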

How the data were processed

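RNA-seq read counts per gene of 3 KO and 4 KO+NM1 tumor pieces were analysed. The authors deposited raw counts of whole reads, without normalization, for 46603 Ensembl genes in each library. Per the labels and methods, total RNA was made into NEBNext Ultra II libraries and sequenced on the NextSeq platform, and by the submitters' processing notes the reads were trimmed with Trimmomatic 0.36, aligned to GRCm38 with HISAT2 2.0.4, sorted with SAMtools 0.1.19 and counted with HTSeq. The annotation release and strand option are not given in the sources used here.

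The members and all lists were chosen with earlier results of these data known. Ensembl identifiers were given GENCODE M21 symbols, which 46005 genes had. Counts were analysed in R 4.3.3 with edgeR 4.0.16 (filterByExpr with a minimum count of 10, TMM, quasi-likelihood test, Benjamini-Hochberg over 16887 genes), and a gene was called where the adjusted p was under 0.05 and the log2 fold change was 1 or more in size, the thresholds of the methods, which name a web tool but not its test. Per role, every piece is given for the member of highest mean CPM, the largest and smallest change, any member not called or going against its role, and Mki67, Foxm1 and Mybl2, and other members shown in full were chosen after their values were seen. Ratios within a piece were compared by exact permutation. Motifs were searched in RefSeq windows. Exon overlaps were taken from GENCODE M21 and similar transcripts from BLAST. The steps were tested on simulated data. The main comparison has no block for the piece number. Alternatives were other scalings (size factors of DESeq2 1.42.0, library size alone, mitochondrially encoded genes left out), other count filters, the DESeq2 Wald test, limma 3.58.1 voom, a replicate block, other pseudocounts, the adjusted p alone, each library left out and a shorter promoter window.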

Additional observations from a re-analysis of the deposited data

Results flagged for a closer look

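Dixon's ratio divides the distance from the most extreme of the 4 KO+NM1 pieces to the next by their range. It was computed for 78 values, the log2 CPM of each mitotic gene, its median over all of them and over each role, and the log2 ratios of the pairs among them. It passed the 95% limit for 12, and in all 12 piece 01 was the highest. Chance alone passes about 1 in 20 such groups, which is about 4 in 78, and these values depend on each other. The ratio was 0.955 for the median log2 CPM of the centromere and kinetochore genes and 0.858 for the log2 ratio of Smc4 to Smc3. Among single genes it was 0.86 for Bub1b, 0.94 for Mad2l1, 0.842 for Melk, 0.838 for Incenp, 0.886 for Pttg1, 0.908 for Smc2, 0.841 for Smc4, 0.836 for Ckap2, 0.833 for Cit and 0.947 for Pimreg. Piece 01 also held 8900 CPM of B and plasma cell markers against 210 to 273 CPM in the other KO+NM1 pieces, whose part in these ratios was not tested.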

How the results depend on the processing

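Of the 56 mitotic genes 54 to 56 were called higher and 0 lower under each alternative run, apart from the filter of at least 10 counts in every library, which tested 42 and called 41. Their median log2 fold change lay between 4.58 and 5.56 and no member changed sign. Leaving out each piece in turn gave 54 to 55 genes and a median of 4.77 to 5.56. Bub3 passed the 2-fold threshold with library size alone, and Bora lost its call without each piece other than KO+NM1 piece 01. Pieces of the same number did not deviate together (correlations of deviations from the group means of -0.0165 to 0.102), and not every piece correlated best with its own number. With the piece number as a block 55 genes were higher, with a median of 5.25, and 40 of the other pathway genes were higher and 0 lower, so that the block changed the calls of no member. The other pathway genes called higher numbered 33 to 44, and 51 by the adjusted p alone. Those called lower, 1 in the main comparison, numbered 2 with DESeq2 size factors, 2 with every gene of at least 1 count and 2 with the DESeq2 Wald test, 0 with library size alone, 0 without mitochondrially encoded genes, 0 with limma voom, 0 with the replicate block and 4 by the adjusted p alone. They numbered 0 to 3 with a piece left out, with 0 without KO piece 01, 0 without KO+NM1 piece 02, 03 or 04 and 3 without KO+NM1 piece 01. The cause was not tested, other than that Lin52 lies at the threshold. In the pairs, 10 of 12 passed 0.05 with each pseudocount and with library size alone, and with a piece left out the exact test cannot reach 0.05. A CHR was found in 30 members over the whole window and in 16 when the 50 bases after the start were left out. Groups of 3 and 4 pieces of a tumor each limit what can be said of KO and KO+NM1 tumors in other mice, and members with under 10 counts in a KO+NM1 piece have fold changes that depend on few reads.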
